A study of Mus musculus with 51 samples.

Results

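The genes described here are 10 components of the p53 pathway, namely Cdkn1a, Btg2, Ccng1, Mdm2, Trp53inp1, Sesn2, Ddb2, Slc19a2, Gdf15 and Trp53. Some act in cell cycle arrest or in feedback on p53 itself, and others in stress responses, repair or transport. All 10 were chosen by gene symbol, with earlier results of these data known. Every probe set annotated to 1 of these symbols alone was used. Of the 10 genes, 8 were measured, with 17 probe sets, out of 11807 genes on the array. Gdf15, a secreted stress cytokine, and Trp53, which encodes p53, were matched to no named probe set and were not analysed here.

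Mammary glands (MG) of virgin females of the strains BALB/c and C57BL/6 were studied. From 8 weeks of age the mice received, once a week for 4 weeks, X-rays at 7.5 cGy per exposure (LD), X-rays at 1.8 Gy per exposure (HD) or a sham exposure. Glands were taken 4 hr or 1 month after the last exposure with the inguinal lymph node removed. The 43 MG arrays held 4 mice per group, except 3 in the sham groups of BALB/c at both times and of C57BL/6 at 4 hr and 2 in BALB/c LD at 1 month, with 1 array per mouse. Blood of 4 unirradiated females per strain at 9 weeks of age was profiled as well, on 8 arrays. The whole gland was profiled without separation of its cell types.

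The transcription factor p53 is stabilized when DNA is broken and switches on a set of genes that halt division, repair damage or kill the cell. Among these are genes that act back on p53, so that its activity after irradiation rises and then falls. In the MG, p53 restrains epithelial growth after damage, and its loss favours mammary tumors. Values are log2 intensities after RMA, so that a difference of 1 is a 2-fold change, and each gene is represented by its brightest probe set unless stated otherwise. A gene was called at an adjusted p under 0.05 (limma, Benjamini-Hochberg over all 22626 probe sets) of any of its probe sets. Values of single arrays are given in the order of the replicate numbers.

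The regulatory sequence that p53 recognizes is a pair of decamers, each of 10 bases. Promoter windows of RefSeq (GRCm38.p6), from 250 bases before to 50 bases after a transcript start, were held for 6 of the 8 measured genes in 7 windows. They were searched on both strands for the p53 consensus site of 20 bases, with the decamers next to each other and the core C and G of each decamer present. The windows of Cdkn1a at its distal start and of Ccng1 held a match with 1 mismatch of 20. A match with at most 1 mismatch was held by 0.06697% of all 32851 windows (22 windows). The sequences are shown because these genes were among those called in both strains after HD, with the matched site in capitals and each read 5′ to 3′ on the strand of the gene.
Cdkn1a, chr17:29090729-29090978, plus strand: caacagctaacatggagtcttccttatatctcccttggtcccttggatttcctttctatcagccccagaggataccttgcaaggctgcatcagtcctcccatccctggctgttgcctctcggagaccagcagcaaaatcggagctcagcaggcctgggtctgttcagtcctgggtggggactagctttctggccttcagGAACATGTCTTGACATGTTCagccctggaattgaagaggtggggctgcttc
Ccng1, chr11:40755442-40755501, minus strand: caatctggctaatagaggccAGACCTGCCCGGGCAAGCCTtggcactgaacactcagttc
Counted from the transcript start, the Cdkn1a site lay at −51 to −32 and the Ccng1 site at −195 to −176. The best matches in the windows of Btg2, Slc19a2 and the second start of Cdkn1a had 7 mismatches, which 39.51% of all windows reached, and those of Mdm2 and Sesn2 had 9. The known p53 sites of Mdm2 lie in its transcribed part, outside this window.

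At 4 hr after the last HD exposure, 7 of the 8 measured genes were higher than in sham glands in each strain. In BALB/c these 7 stood against 6.87% of all genes called, and in C57BL/6 against 0.966%. Cdkn1a rose most, Slc19a2 and Trp53inp1 followed, Ccng1, Mdm2 and Sesn2 rose by about 1 log2 unit, and Btg2 rose least. Ddb2 was the gene that was not called. The HD arrays did not overlap with the sham arrays in 14 (BALB/c) and 15 (C57BL/6) of the 17 probe sets, beside 17.44% and 11.9% of all probe sets. The median log2 fold change of the 8 genes was 1.19 in BALB/c, where that of all genes was −0.00389. In C57BL/6 these medians were 1.06 and −0.00711.

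**Figure D1:**
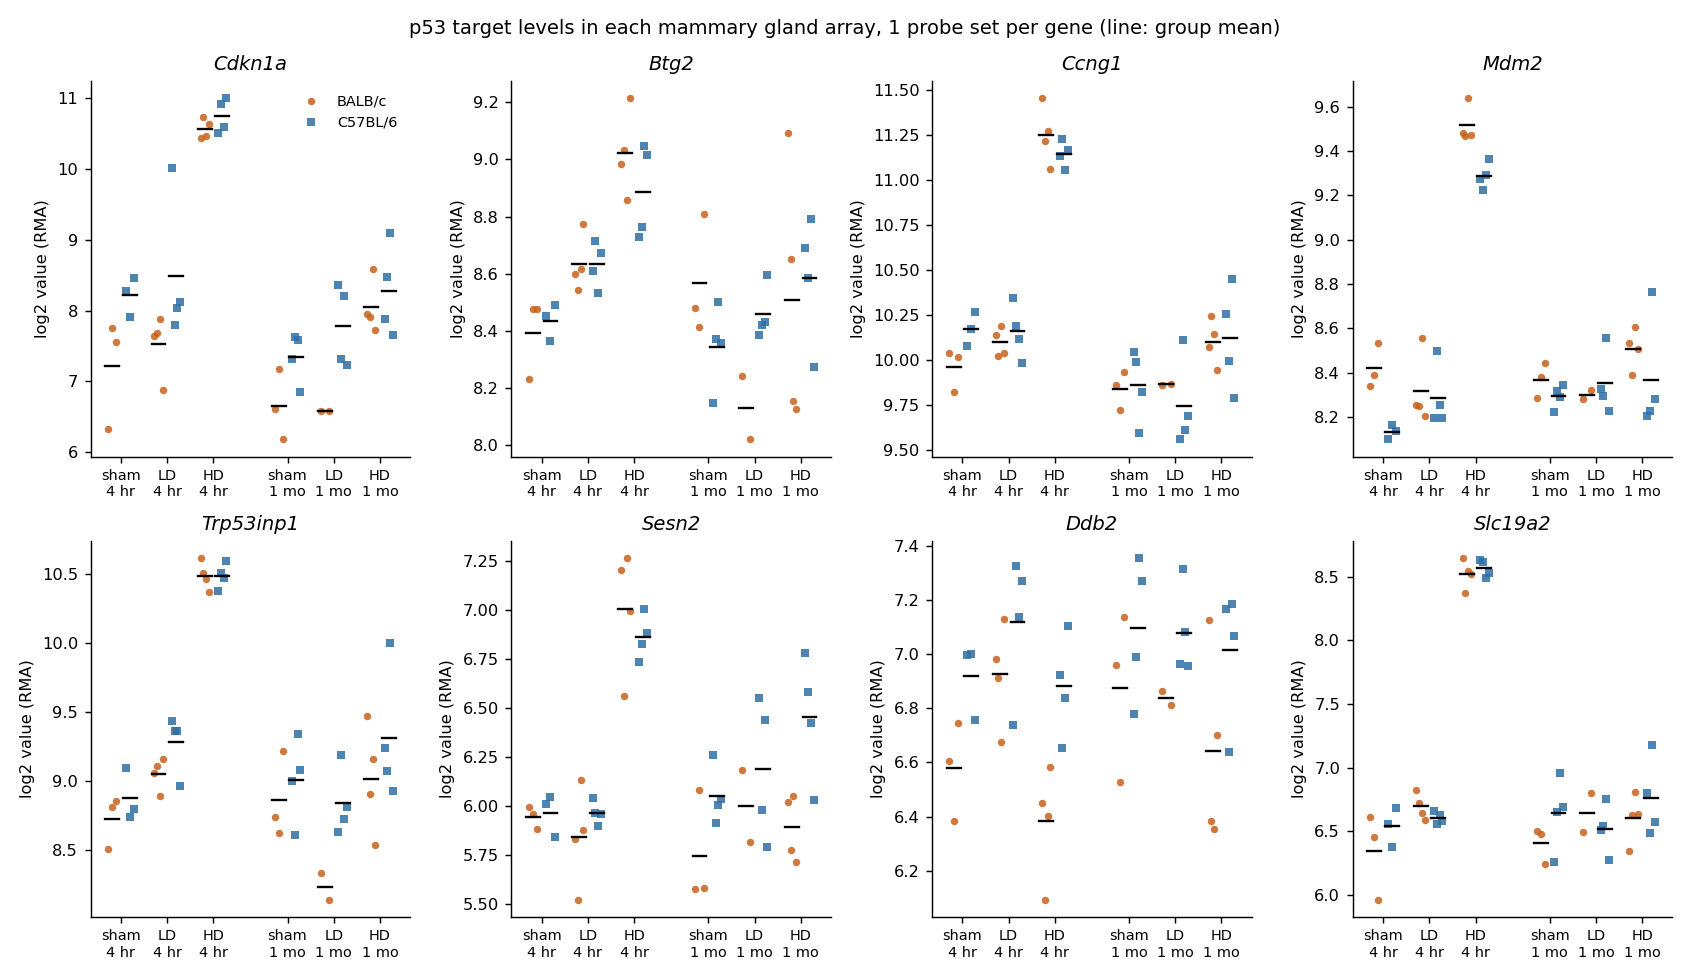
Log2 values of the 8 genes in each of the 43 MG arrays (1 probe set per gene, vertical axis), by dose and time on the horizontal axis, with BALB/c as circles, C57BL/6 as squares and group means as lines. All HD 4 hr arrays lie above all sham 4 hr arrays of their strain for the 7 genes other than Ddb2, and 1 C57BL/6 LD 4 hr array lies at 10.01 for Cdkn1a.

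Cdkn1a (gene ID 12575, probe set 1424638_at) encodes p21, an inhibitor of the cyclin-dependent kinases that drive the cell cycle. In BALB/c its level was 6.33, 7.75 and 7.55 in the sham arrays, 7.64, 7.69, 7.88 and 6.88 after LD, and 10.44, 10.73, 10.47 and 10.63 after HD. Every HD array lay above every sham and LD array, with a rise over sham of 3.36 (SE 0.31, adjusted p = 6.17e-06) or 10.2-fold. In C57BL/6 the arrays read 8.28, 7.91 and 8.46 for sham, 10.01, 7.80, 8.04 and 8.12 for LD and 10.51, 10.91, 10.60 and 11.0045 for HD. The HD arrays were again apart from the others, with a rise over sham of 2.54 (SE 0.42, adjusted p = 0.00290) or 5.83-fold. The second probe set gave 3.23 in BALB/c and 2.55 in C57BL/6.

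Btg2 (gene ID 12227, 1416250_at) belongs to a family of antiproliferative proteins that promote mRNA decay. BALB/c glands read 8.23, 8.48 and 8.48 in sham, 8.60, 8.54, 8.62 and 8.77 after LD and 8.98, 9.03, 8.86 and 9.21 after HD. C57BL/6 glands read 8.45, 8.37 and 8.49 in sham, 8.61, 8.71, 8.53 and 8.67 after LD and 8.73, 8.76, 9.05 and 9.01 after HD. In both strains the HD arrays lay above the LD arrays, and these above the sham arrays, without overlap. The second BALB/c probe set overlapped between LD and sham. LD arrays were apart from sham in 3 (BALB/c) and 4 (C57BL/6) of the 17 probe sets at 4 hr, where 10.85% and 5.503% of all probe sets were apart. The rise after HD was 0.63 (SE 0.18, adjusted p = 0.0499) in BALB/c and 0.45 (SE 0.11, adjusted p = 0.0616) in C57BL/6, where the gene was called by its second probe set (0.55, adjusted p = 0.0163). In BALB/c the adjusted p of the brightest probe set exceeded 0.05 when any 1 of the HD or sham arrays was left out, at 0.0665 to 0.166, and the call of the gene by either probe set was lost without HD replicate 2, 3 or 4 or sham replicate 1 or 2. In C57BL/6 the call was lost without HD replicate 3 or sham replicate 1 or 2.

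Ccng1 (gene ID 12450, 1420827_a_at) encodes cyclin G1, which recruits a protein phosphatase to Mdm2 and so feeds back on p53. Its BALB/c levels were 10.04, 9.82 and 10.02 in sham, 10.14, 10.02, 10.19 and 10.04 after LD and 11.45, 11.22, 11.27 and 11.06 after HD. In C57BL/6 they were 10.08, 10.17 and 10.27, then 10.35, 10.19, 10.12 and 9.99, and for HD 11.13, 11.22, 11.05 and 11.16. The HD arrays stood above all others in both strains, while LD and sham arrays were mixed for this probe set. The rise was 1.29 (SE 0.10, adjusted p = 1.11e-06) or 2.44-fold in BALB/c and 0.97 (SE 0.15, adjusted p = 0.00112) or 1.96-fold in C57BL/6. Its other 2 probe sets rose by 1.45 and 1.41 in BALB/c and by 1.19 and 1.18 in C57BL/6. In BALB/c, LD lay above sham without overlap for 1450016_at (means 9.15 and 8.88), where 10.85% of all probe sets were apart. LD and sham overlapped for 1450017_at, and for both of these probe sets in C57BL/6. With plate column as a covariate, the brightest probe set was no longer called in C57BL/6 (0.79, adjusted p = 0.218), and the gene was called by probe set 1450017_at (1.08, adjusted p = 0.0371).

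Mdm2 (gene ID 17246, 1423605_a_at) is the ubiquitin ligase that marks p53 for degradation and closes the negative loop. In BALB/c it read 8.34, 8.39 and 8.53 in sham, 8.25, 8.25, 8.56 and 8.20 after LD and 9.48, 9.47, 9.64 and 9.47 after HD. The C57BL/6 arrays read 8.10, 8.16 and 8.14, then 8.20, 8.50, 8.25 and 8.19, and for HD 9.28, 9.22, 9.29 and 9.36. The spread within groups was small, and the HD arrays lay at least 0.94 above the highest sham array in BALB/c and 1.06 in C57BL/6. The rise was 1.10 (SE 0.09, adjusted p = 2.93e-06) or 2.14-fold and 1.16 (SE 0.11, adjusted p = 6.67e-06) or 2.23-fold.

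Trp53inp1 (gene ID 60599, 1416926_at) encodes a nuclear protein that helps kinases to phosphorylate p53, a loop that favours p53 activity. BALB/c arrays gave 8.51, 8.81 and 8.85 in sham, 9.05, 9.10, 8.89 and 9.16 after LD and 10.62, 10.51, 10.47 and 10.37 after HD. In C57BL/6 the sham arrays gave 9.09, 8.74 and 8.80, the LD arrays 9.43, 9.36, 9.36 and 8.96 and the HD arrays 10.38, 10.51, 10.47 and 10.59. The HD arrays of both strains lay in the same range, between 10.37 and 10.62. Trp53inp1 rose by 1.77 (SE 0.18, adjusted p = 1.53e-05) or 3.40-fold in BALB/c and by 1.61 (SE 0.20, adjusted p = 0.000147) or 3.06-fold in C57BL/6.

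Sesn2 (gene ID 230784, 1451599_at), a sestrin that restrains growth signalling through mTORC1 under stress, was measured at the 48.8 percentile of all probe sets in the MG. Its BALB/c values were 5.99, 5.96 and 5.88 in sham, 5.83, 5.52, 6.13 and 5.88 after LD and 7.20, 6.56, 7.26 and 6.996 after HD. The C57BL/6 values were 6.01, 6.04 and 5.84, then 6.04, 5.96, 5.90 and 5.96, and for HD 6.73, 6.83, 7.01 and 6.88. No HD array overlapped with sham or LD, and HD replicate 2 of BALB/c was the lowest of its group. The rise was 1.06 (SE 0.17, adjusted p = 0.00332) in BALB/c and 0.90 (SE 0.16, adjusted p = 0.00749) in C57BL/6.

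Slc19a2 (gene ID 116914, 1417902_at) encodes a thiamine transporter of the plasma membrane. BALB/c glands showed 6.61, 6.45 and 5.96 in sham, 6.83, 6.72, 6.65 and 6.58 after LD and 8.64, 8.37, 8.54 and 8.52 after HD. For C57BL/6 the sham values were 6.55, 6.38 and 6.68, the LD values 6.66, 6.56, 6.62 and 6.58 and the HD values 8.63, 8.62, 8.49 and 8.53. The HD arrays lay at least 1.76 above sham in BALB/c and 1.81 in C57BL/6. Slc19a2 rose by 2.18 (SE 0.14, adjusted p = 2.02e-07) or 4.52-fold and by 2.03 (SE 0.15, adjusted p = 2.34e-07) or 4.08-fold. A second, dimmer probe set rose by 0.85 in C57BL/6 (adjusted p = 0.00193), and in BALB/c it read 0.56 higher (adjusted p = 0.0688), with overlapping groups.

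Ddb2 (gene ID 107986, 1425706_a_at) encodes the subunit that recognizes UV lesions for nucleotide excision repair, and the human gene is a known p53 target. Its levels were 6.61, 6.38 and 6.75 in BALB/c sham arrays and 6.45, 6.09, 6.40 and 6.58 after HD. In C57BL/6 the sham arrays read 6.999, 7.001 and 6.76 and the HD arrays 6.93, 6.65, 6.84 and 7.11. The groups overlapped in both strains. The differences were −0.20 (95% interval −0.58 to 0.18, adjusted p = 0.595) and −0.04 (95% interval −0.38 to 0.30, adjusted p = 0.958), and the second probe set gave −0.07 in both strains. The upper bounds of the intervals were 0.18 and 0.30, respectively.

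Transcripts of the epithelium moved in the same comparisons. Of 16 luminal epithelial markers measured, 9 were called lower after HD at 4 hr in BALB/c (among them Krt8, Krt18, Epcam and Elf5), with a median log2 fold change of −1.24, and 1 (Elf5) in C57BL/6, with a median of −0.63. Of all genes, 6.87% (BALB/c) and 0.966% (C57BL/6) were called in these comparisons, in either direction. The mean of the list, relative to the median MG array, lay between −1.86 and −0.72 in the BALB/c HD arrays and between −0.37 and −0.07 in sham, and between −0.78 and −0.26 and between 0.01 and 0.18 in C57BL/6. Krt8, Krt18 and Epcam stood at or above the 95.5 percentile of probe sets in the MG and the adipocyte gene Adipoq at the 99.96 percentile, and the milk genes Csn3, Csn2 and Wap stood at the 93.6, 23.5 and 18.7 percentile. Fewer cells of a type and less RNA per cell cannot be told apart in whole tissue. The part of this shift in the response of the p53 targets was not tested. Skeletal muscle transcripts stood out in BALB/c HD 4 hr replicate 1, with a list mean 7.08 above the median array. Without this and the other arrays listed for transcripts of another tissue (5 of BALB/c and 1 of C57BL/6 MG), 6 genes in BALB/c and 7 in C57BL/6 were called at HD 4 hr. Btg2 was the gene lost in BALB/c. The C57BL/6 array left out was a sham array at 1 month, so the HD 4 hr fold changes of C57BL/6 could not move. The arrays left out did not include replicate 3 of HD at 1 month of either strain. These held skeletal muscle transcripts in BALB/c and B and T cell transcripts in C57BL/6. The sham arrays lay in plate columns 1 to 5 and the irradiated arrays in columns 6 to 12, except 1 C57BL/6 LD 1 month array in column 5, so that a covariate for plate column separates the HD from the sham arrays only by assuming a straight trend over the columns. With it, 6 genes in each strain were called at HD 4 hr, and Btg2 was not (0.78, adjusted p = 0.287 in BALB/c and 0.69, adjusted p = 0.115 in C57BL/6). The shares of all genes called with the covariate or without the left-out arrays were not set beside these counts.

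LD called none of the 8 genes against sham by limma, at 4 hr or at 1 month, in either strain, as it called no gene at all (0% of all genes in each of the 4 comparisons). At an unadjusted p under 0.05, 1 gene of the 8 passed in BALB/c at each time and in C57BL/6 at 4 hr and none in C57BL/6 at 1 month, among 1542, 1147, 791 and 1991 of all genes. At 4 hr the median log2 fold change of the 8 genes was 0.27 (BALB/c) and 0.17 (C57BL/6), and that of all genes −0.00837 and −0.00323. The gene with the smallest p at 4 hr in BALB/c was Slc19a2, at 0.35 (95% interval 0.06 to 0.65, adjusted p = 0.434). Trp53inp1 read 0.33 (95% interval −0.04 to 0.70) in BALB/c and 0.41 (95% interval −0.02 to 0.83) in C57BL/6. Cdkn1a read 0.31 (95% interval −0.33 to 0.95) and 0.28 (95% interval −0.59 to 1.15). The C57BL/6 value rested on LD replicate 1, whose level of 10.01 lay close to the HD arrays, and without it the difference was −0.23 (adjusted p = 0.930). Its second Cdkn1a probe set was high as well, at 7.74 against 5.96 to 6.21 in the other LD arrays. In the same array Ccng1 was the highest of its LD group, at 10.35, and Mdm2 was not, at 8.20. Its brown adipocyte list stood 2.36 above the median array, against 0.31 to 1.06 in the other LD arrays, and its luminal list at −0.40, against −0.08 to 0.49. In the C57BL/6 sham arrays at 4 hr these lists lay between 0.17 and 3.13 and between 0.01 and 0.18. The part of either list in the Cdkn1a level of LD replicate 1 was not tested.

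At 1 month after LD, Trp53inp1 of BALB/c had the smallest p of the 8 genes, with 8.33 and 8.14 in the 2 LD arrays and 8.74, 8.62 and 9.22 in sham. Both LD arrays lay below the sham arrays, by −0.63 on average (95% interval −1.07 to −0.19, adjusted p = 0.637). In this comparison of 2 with 3 arrays 24.24% of all probe sets were apart, and 2 of the 17 probe sets of the members were. Cdkn1a of C57BL/6 read 8.36, 7.31, 8.21 and 7.23 after LD and 7.31, 7.63, 7.58 and 6.85 in sham, with overlap and a difference of 0.43 (95% interval −0.37 to 1.24, adjusted p = 0.668).

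**Figure D2:**
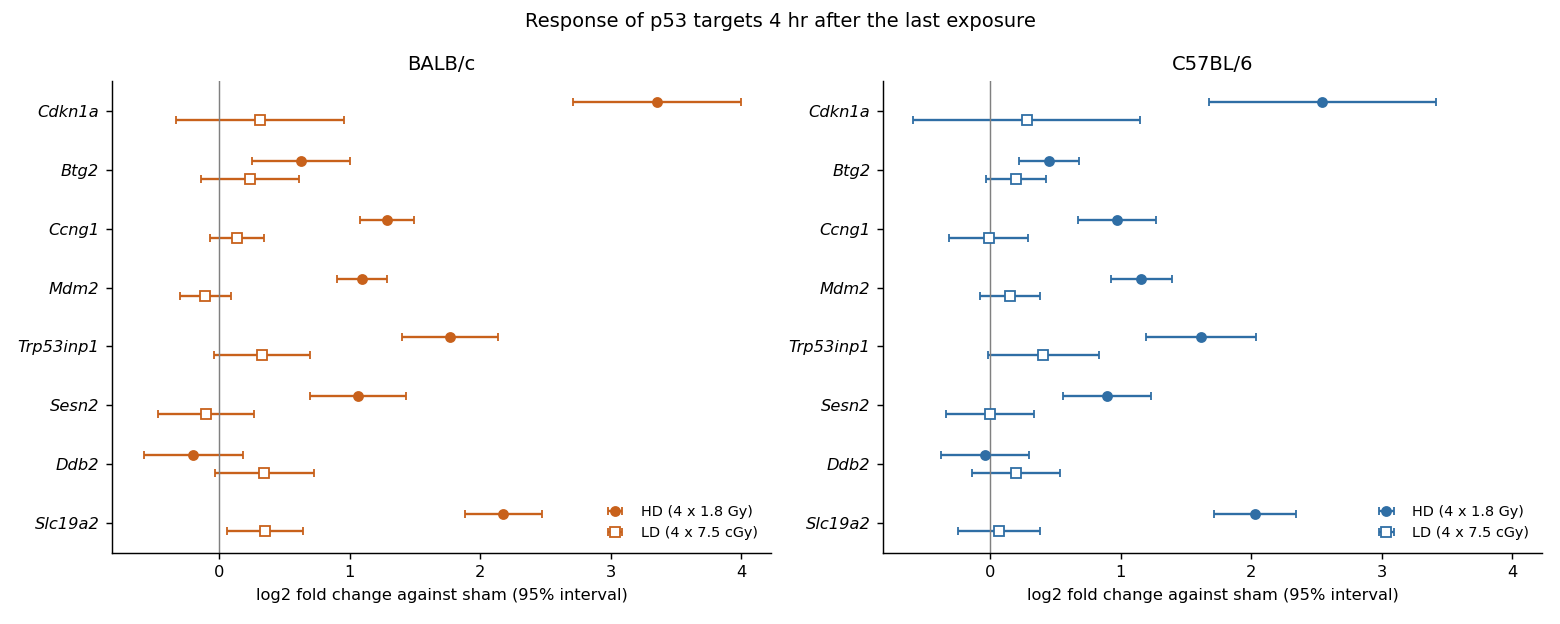
Log2 fold change against sham at 4 hr (horizontal axis, with 95% intervals) for the 8 genes in BALB/c and C57BL/6, with HD as filled circles and LD as open squares. HD intervals lie clear of 0 for the genes other than Ddb2, while LD estimates lie between −0.11 and 0.41.

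A direct comparison of HD with LD at 4 hr called 6 of the 8 genes higher after HD in BALB/c (9.32% of all genes called) and 6 in C57BL/6 (2.04%). These were Cdkn1a, Ccng1, Mdm2, Trp53inp1, Sesn2 and Slc19a2 in both strains. Cdkn1a was 3.05 (SE 0.28, adjusted p = 6.97e-06) higher after HD than after LD in BALB/c and 2.26 (SE 0.39, adjusted p = 0.00448) in C57BL/6. Slc19a2 was 1.82 (adjusted p = 5.17e-07) and 1.96 (adjusted p = 1.03e-07) higher. Btg2, with 0.39 (adjusted p = 0.159) and 0.25 (adjusted p = 0.191), was not called. Ddb2 differed the other way, by −0.54 (95% interval −0.90 to −0.19, adjusted p = 0.0548) in BALB/c and by −0.24 (adjusted p = 0.422) in C57BL/6. Its LD arrays in BALB/c read 6.98, 6.91, 6.68 and 7.13, and without LD replicate 3 the difference was −0.63 (adjusted p = 0.0457). When plate column was added as a covariate, 3 of 8 genes were called in C57BL/6, and Cdkn1a (1.78, adjusted p = 0.182), Sesn2 (0.66, adjusted p = 0.186) and Trp53inp1 (1.16, adjusted p = 0.0777) were not. The share of all genes called with the covariate was not set beside this count, so it is no result about the 8 genes alone. In both strains the HD 4 hr arrays lay in columns 6 to 8 and the LD 4 hr arrays in columns 9 to 12. The covariate separates these doses only by assuming a straight trend over the columns.

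At 1 month after HD, none of the 8 genes was called in BALB/c by limma (0.0339% of all genes; 2 of the 8 and 1689 of all genes at an unadjusted p under 0.05), and 1, Ccng1, was called in C57BL/6 (1.28%). Cdkn1a kept the largest difference. Its BALB/c arrays read 7.96, 7.91, 8.58 and 7.73 after HD and 6.61, 7.18 and 6.18 in sham, and its C57BL/6 arrays 7.89, 8.47, 9.09 and 7.66 after HD and 7.31, 7.63, 7.58 and 6.85 in sham. All HD arrays lay above all sham arrays for this probe set, by a narrow margin of 0.03 in C57BL/6, where the second Cdkn1a probe set overlapped. At 1 month after HD the arrays were apart from sham, in either direction, in 6 (BALB/c) and 5 (C57BL/6) of the 17 probe sets, beside 9.741% and 10.36% of all probe sets. In C57BL/6 the Ddb2 probe set 1436680_s_at was apart with HD lower, at a mean of 6.80 against 7.04. The Cdkn1a difference was 1.39 (SE 0.31, adjusted p = 0.0943) or 2.62-fold in BALB/c and 0.93 (SE 0.39, adjusted p = 0.212) in C57BL/6.

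The call of Ccng1 in C57BL/6 at 1 month came from its 2 dimmer probe sets. Probe set 1450017_at read 8.63, 8.70, 9.30 and 8.71 after HD and 8.25, 8.38, 8.12 and 8.29 in sham, a difference of 0.57 (SE 0.12, adjusted p = 0.0375). Probe set 1450016_at read 8.94, 8.94, 9.84 and 8.85 after HD and 8.47, 8.46, 8.51 and 8.56 in sham, a difference of 0.64 (SE 0.15, adjusted p = 0.0462). The groups did not overlap for either, and HD replicate 3 was the highest. The brightest probe set gave 0.26 (adjusted p = 0.327), and the call of the gene was lost without HD replicate 2 or 3 or sham replicate 1, 2 or 3. In BALB/c the same 2 probe sets gave 0.41 (adjusted p = 0.232) and 0.54 (adjusted p = 0.210), again without overlap of the groups. The other genes differed by −0.23 to 0.20 in BALB/c and by −0.08 to 0.40 in C57BL/6.

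C57BL/6 HD replicate 3 at 1 month was the highest HD array for Cdkn1a, Btg2, Ccng1, Mdm2, Trp53inp1 and Slc19a2. It also held the highest levels of its group in the lists of B cell markers (1.87 above the median array against −0.08 to 0.08 in the other 3), T cell markers (1.74 against −0.06 to 0.36) and proliferation genes (1.19 against 0.00 to 0.26). Their part in these values was not tested. In BALB/c HD at 1 month, replicate 1 stood 3.70 above the median array for B cell and 2.82 for T cell markers, and replicate 3 stood 3.71 above it for skeletal muscle. The Cdkn1a difference in BALB/c was 1.42 (adjusted p = 0.1504) without replicate 1 and 1.21 (adjusted p = 0.106) without replicate 3. Luminal markers had a median difference of −1.04 in BALB/c, with 15 of 16 negative, and of −0.28 in C57BL/6, with 13 negative and Elf5 called. The 10 skeletal muscle markers had a median of −1.89 in C57BL/6, all negative, where sham replicate 2 stood 5.9998 above the median array, and without this array Cdkn1a read 1.03 (adjusted p = 0.248). The part of the luminal shift in the 1 month values was not tested. Without C57BL/6 HD replicate 3 the differences from sham were 0.66 for Cdkn1a, 0.15 for Ccng1 and −0.06 for Mdm2. Comparing HD with LD at 1 month, no member was called by limma in BALB/c (0.00847% of all genes; 4 of the 8 and 1885 of all genes at an unadjusted p under 0.05) or in C57BL/6 (0%; 3 of the 8 and 1488 of all genes).

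The change of the HD response between 4 hr and 1 month was tested as an interaction of dose and time. In BALB/c, 4 of the 8 genes were called with a smaller response at 1 month (0.119% of all genes called), and in C57BL/6, 2 were (0.0593%). The estimates of all 8 genes were negative in both strains. Slc19a2 lost 1.98 log2 units of response in BALB/c (1 month minus 4 hr −1.98, SE 0.20, adjusted p = 0.000132) and 1.91 in C57BL/6 (−1.91, SE 0.21, adjusted p = 0.000176). Mdm2 lost nearly its whole rise, with −0.96 (SE 0.13, adjusted p = 0.00472) and −1.08 (SE 0.15, adjusted p = 0.00414). Ccng1 (−1.03, SE 0.14, adjusted p = 0.00472) and Trp53inp1 (−1.61, SE 0.25, adjusted p = 0.0138) passed in BALB/c. In C57BL/6 they read −0.71 (adjusted p = 0.499) and −1.31 (adjusted p = 0.111). Trp53inp1 was not called in BALB/c without sham 4 hr replicate 1 (adjusted p = 0.0509) and was called in C57BL/6 without HD 1 month replicate 3 (−1.54, adjusted p = 0.00326), where 4 genes were called. Cdkn1a, the gene with the largest response, read −1.97 (SE 0.43, adjusted p = 0.210) and −1.61 (SE 0.57, adjusted p = 0.769). The standard deviation of its sham arrays at 4 hr and 1 month was 0.77 and 0.50 in BALB/c and 0.28 and 0.36 in C57BL/6. In C57BL/6 that of its HD arrays at 1 month was 0.64. Without the arrays listed for transcripts of another tissue, 1 gene (Slc19a2) remained called in BALB/c, and 2 in C57BL/6. The arrays left out did not include replicate 3 of HD at 1 month of either strain. A covariate for plate column gave the same counts. The shares of all genes called in these settings were not set beside them.

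**Figure D3:**
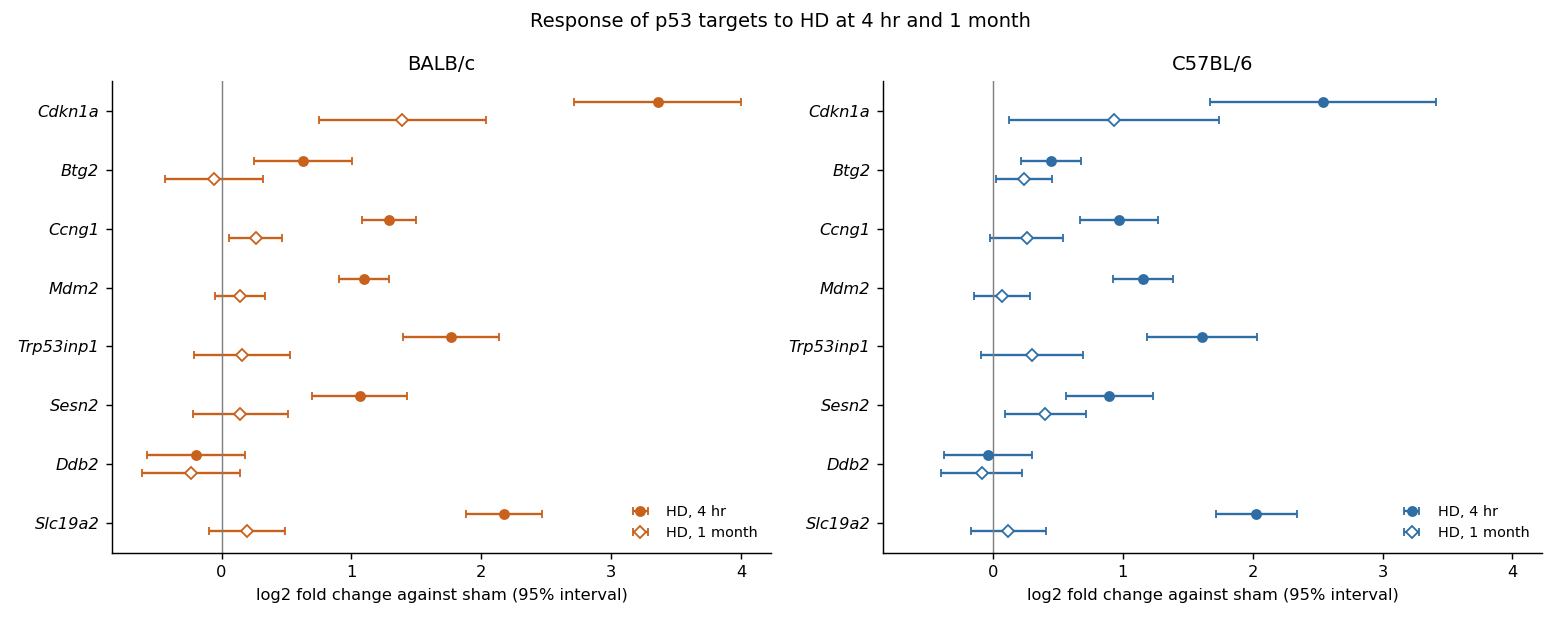
Log2 fold change of HD against sham (horizontal axis, with 95% intervals) for the 8 genes at 4 hr (filled circles) and 1 month (open diamonds) in each strain. The 1 month estimates lie nearer to 0 than the 4 hr estimates except for Ddb2, and Cdkn1a has the largest 1 month estimate in both strains, 1.39 in BALB/c and 0.93 in C57BL/6.

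The response of the 8 genes was compared between the strains as the BALB/c response minus the C57BL/6 response over all 43 MG arrays. None was called by limma for LD or HD at either time (0% of all genes in each of the 4 comparisons). At an unadjusted p under 0.05, 2 of the 8 genes passed for LD at 1 month and none in the other 3 comparisons, among 1384 of all genes for LD at 1 month and 720 to 1002 in the others. For HD at 4 hr the difference was 0.81 for Cdkn1a (95% interval −0.30 to 1.93, adjusted p = 0.860), 0.32 for Ccng1 (95% interval −0.04 to 0.68), 0.15 for Slc19a2 (95% interval −0.28 to 0.57) and −0.06 for Mdm2 (95% interval −0.35 to 0.23). The smallest p for LD at 1 month was that of Btg2, at −0.55 (95% interval −1.01 to −0.09, adjusted p = 0.479), with 2 BALB/c LD arrays at 8.24 and 8.02.

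**Figure D4:**
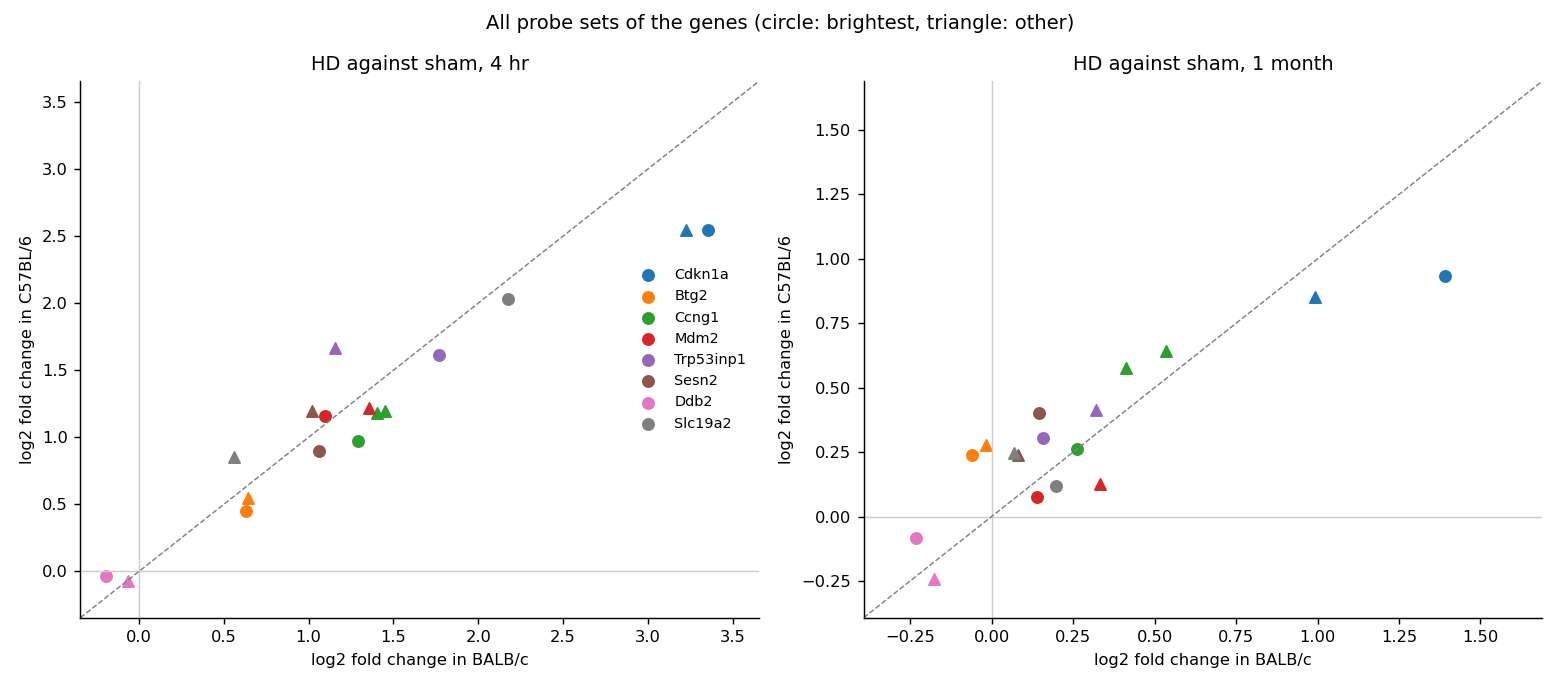
Log2 fold change of HD against sham in C57BL/6 (vertical axis) against that in BALB/c (horizontal axis) for all 17 probe sets at 4 hr and 1 month, with the brightest probe set of a gene as a circle, its others as triangles and equality as a dashed line. At 4 hr the probe sets of 7 genes lie between 0.45 and 3.36 in both strains, and both Ddb2 probe sets lie below 0.

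Among the sham glands, 1 of the 8 genes, Cdkn1a, differed between the strains (11.9% of all genes called). Its brightest probe set was 0.85 lower in BALB/c (−0.85, SE 0.24, adjusted p = 0.0448), with BALB/c arrays between 6.18 and 7.75 and C57BL/6 arrays between 6.85 and 8.46, overlapping over both times together. Its second probe set read 0.21 higher in BALB/c (95% interval −0.28 to 0.70), so that the probe sets of this gene disagreed on the direction. The call was lost without 9 of the 13 arrays left out in turn, among them BALB/c sham 4 hr replicate 1 (−0.63, adjusted p = 0.0641). The 4 brown adipocyte markers measured were all lower in value in BALB/c sham glands, with a median of −1.29 and Cidea called, and their list mean relative to the median array lay between −1.35 and 0.79 in BALB/c and between −0.98 and 3.13 in C57BL/6. The part of this shift in the Cdkn1a difference was not tested. Without the arrays listed for transcripts of another tissue, Cdkn1a read −0.58 (adjusted p = 0.0978). Mdm2 read 0.18 higher in BALB/c (95% interval 0.06 to 0.30, adjusted p = 0.0668) and Ddb2 0.28 lower (−0.28, 95% interval −0.55 to −0.02, adjusted p = 0.183). Each strain had an MG plate of its own, so that strain and plate cannot be told apart here.

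None of the 8 genes was called between the strains in unirradiated blood by limma (0.576% of all genes; 3 of the 8 and 1251 of all genes at an unadjusted p under 0.05). The smallest p was that of Btg2, with 9.85, 9.80, 9.75 and 10.12 in BALB/c and 9.44, 9.35, 9.61 and 8.99 in C57BL/6, a difference of 0.54 (SE 0.15, adjusted p = 0.304). Ccng1 read 0.30 higher in BALB/c (adjusted p = 0.323) and Ddb2 0.51 higher (adjusted p = 0.468), while Cdkn1a differed by 0.12 (95% interval −0.27 to 0.52). Slc19a2 read 3.89, 4.50, 4.65 and 4.60 in BALB/c and 4.32, 4.25, 4.20 and 8.64 in C57BL/6. The value of 8.64 was that of C57BL/6 replicate 4, in which the list of liver markers stood 9.49 above the median array and whose median correlation with the other arrays of its strain was 0.811, against 0.992 for each of the others. In BALB/c replicate 2 the liver list stood 3.71 above the median array. The difference of Slc19a2 was −0.94 with C57BL/6 replicate 4 and 0.15 (adjusted p = 0.747) without it. Hemoglobin, S100a8, the B cell genes other than Cr2 and the T cell genes other than Trat1 were abundant in blood. Cr2 and Trat1 stood lower among the probe sets, as did the neutrophil genes Elane, Mpo and Ngp.

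**Figure D5:**
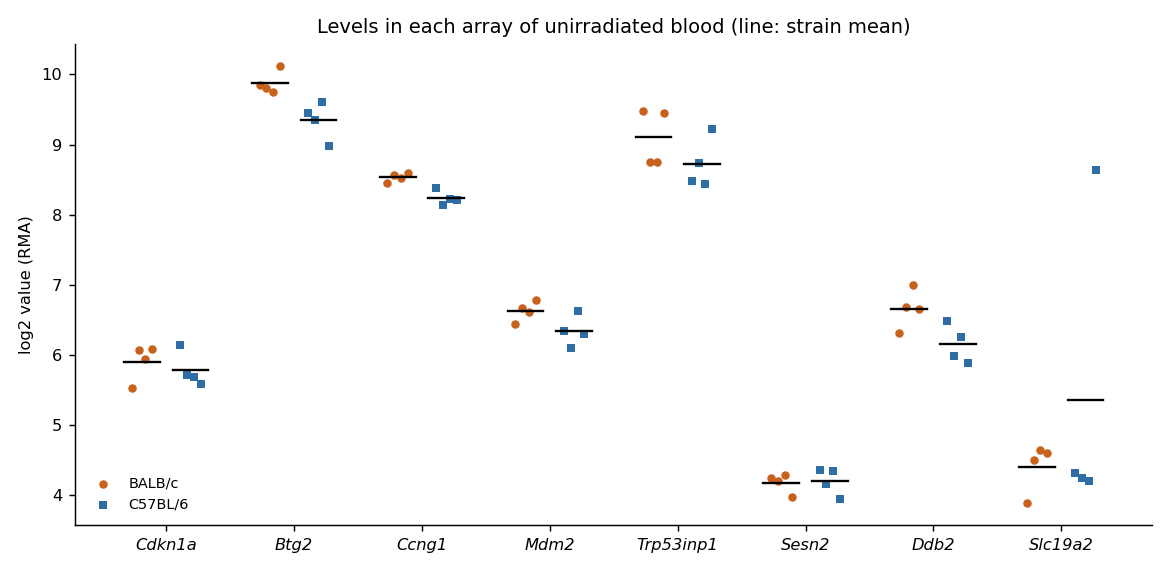
Log2 values of the 8 genes in each of the 8 blood arrays (vertical axis), with BALB/c as circles, C57BL/6 as squares and strain means as lines. The strain means differ by at most 0.54 except for Slc19a2, where 1 C57BL/6 array lies at 8.64.

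Other genes of the p53 pathway were taken from lists chosen by function. At HD 4 hr, 6.87% of all genes were called in BALB/c and 0.966% in C57BL/6, in either direction. Of 14 apoptosis targets measured, 4 were higher after HD at 4 hr in each strain. Aen, an exonuclease, rose by 1.62 in BALB/c and 1.84 in C57BL/6, Zmat3, an RNA-binding protein, by 1.20 and 1.37, and Ei24 by 0.70 and 0.51. The fourth was the death receptor Fas in BALB/c (0.99, adjusted p = 0.00402) and Apaf1, the core of the apoptosome, in C57BL/6 (0.78, adjusted p = 0.0153). The median of this list was 0.45 in BALB/c and 0.27 in C57BL/6.

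Of 18 repair and metabolic targets measured, 6 were higher in BALB/c (6.87% of all genes called) and 4 in C57BL/6 (0.966%). Dcxr, a carbonyl reductase, rose by 1.52 and 1.20, the epoxide hydrolase Ephx1 by 1.42 and 1.36 and the translesion polymerase Polk by 1.59 and 1.10. Of 11 other arrest targets, 2 rose in BALB/c, Gtse1 (1.33, adjusted p = 1.96e-05) and Psrc1 (1.61, adjusted p = 0.00142), and 1 in C57BL/6, Gtse1 (1.01, adjusted p = 0.00831). Plk2 read −0.46 in BALB/c (adjusted p = 0.191), and Sfn −0.63 (adjusted p = 0.230) and Gadd45a −0.56 (adjusted p = 0.278) in C57BL/6. The list of arrest targets had a median of 0.06 and 0.10. It is not set against the median of the 8 genes, since members and lists were chosen with earlier results of these data known.

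Of 14 regulators of p53, 1 rose and 2 fell in BALB/c (6.87% of all genes called), and none was called in C57BL/6 by limma (0.966%). The kinase gene Hipk2 rose by 0.51 (adjusted p = 0.0309), while Trp63 fell by 1.09 (adjusted p = 0.0215) and Trp53bp1 fell by 0.49 (adjusted p = 0.0428). Trp63 is also a marker of myoepithelial cells, whose list of 8 genes had a median of −0.51. In C57BL/6 the phosphatase gene Ppm1d read 0.53 (adjusted p = 0.0571), Mdm4 0.41 (adjusted p = 0.0871) and Hipk2 0.34 (adjusted p = 0.250). Of 25 proliferation genes, Aurkb was called lower in BALB/c and none in C57BL/6 by limma, beside the same shares of all genes. These counts are no result about the list. Its medians were −0.84 and −0.61. Mcm6 read −1.69 (adjusted p = 0.0511) and Mcm7 −0.81 (adjusted p = 0.0578) in BALB/c, and Mcm4 −0.61 (adjusted p = 0.178) and Mcm7 −0.47 (adjusted p = 0.270) in C57BL/6. The BALB/c and the C57BL/6 counts of a list were not compared by a test.

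Likeness of pattern was measured as Pearson r over the 43 MG arrays, each value less the mean of the sham arrays of its strain and time, and is given as a description. The genes most like Cdkn1a were Aen (0.89), Gtse1 (0.86), Ephx1 (0.86), Zmat3 (0.85) and Fas (0.85). Those most like Mdm2 were Zmat3 (0.94), Aen (0.92), Gtse1 (0.91), Dcxr (0.89) and Ephx1 (0.89), and those most like Ccng1 were Dcxr (0.92), Zmat3 (0.89), Ephx1 (0.89), Gtse1 (0.88) and Pqlc3 (0.88). Among the 8 genes, Mdm2 and Slc19a2 had an r of 0.93, and Cdkn1a and Ccng1 one of 0.86. Btg2 was less like the others, with 0.59 for Cdkn1a and 0.63 for Mdm2. Ddb2 had negative values with Cdkn1a (−0.44) and Mdm2 (−0.20). The arrays share the 8 HD 4 hr mice as their most distant points.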

How the data were processed

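Total RNA of mammary gland and of globin-depleted blood was hybridized to high-throughput Affymetrix mouse genome arrays, 1 per mouse, each mouse processed individually. The deposited values are log2 intensities that the authors background-corrected, normalized and summarized by RMA, and no scanner files were used, so these steps could not be varied. Of 22626 probe sets, 18003 named 1 gene, 287 several and 4336 none, by the platform annotation. Array medians lay between 6.16 and 6.36 in MG and between 4.61 and 4.70 in blood, and the number of arrays limits the precision. Linear models were fitted to all probe sets with limma 3.58.1 in R 4.3.3 (lmFit, eBayes), per strain for dose and time, over all 43 MG arrays for strain differences of response, over 13 sham arrays and over 8 blood arrays, with Benjamini-Hochberg adjustment. The pipeline was tested on simulated data. The members, gene lists and tests were chosen with earlier results of these data known, and genes that are no members were named as the 3 of smallest p in each p53 list at HD 4 hr, or after their values were seen where they make up a count of 5 or fewer or mark a cell type. Alternatives were other filters, centring, array weights, covariates and left-out arrays. Figures were drawn with matplotlib 3.10.9.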

Additional observations from a re-analysis of the deposited data

Results flagged for a closer look

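In 6 of 80 groups of a gene's arrays, 1 array stood far from the rest of its group, where chance gives about 1 in 20. Cdkn1a read 10.01 in C57BL/6 LD 4 hr replicate 1, with the next array at 8.12. Mdm2 read 9.64 in BALB/c HD 4 hr replicate 3 (next 9.48), 8.56 in BALB/c LD 4 hr replicate 3 (next 8.25) and 8.76 in C57BL/6 HD 1 month replicate 3 (next 8.28). Slc19a2 read 8.64 in blood of C57BL/6 replicate 4 (next 4.32), the array with liver transcripts. Trp53inp1 read 8.96 in C57BL/6 LD 4 hr replicate 4, with the next array at 9.36.

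The HD response differed between the 2 times by the interaction term of limma, as 1 month minus 4 hr, for Slc19a2 (−1.98 in BALB/c and −1.91 in C57BL/6), Mdm2 (−0.96 and −1.08), and in BALB/c Ccng1 (−1.03) and Trp53inp1 (−1.61).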

How the results depend on the processing

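Of the values of single genes under alternatives, 2699 kept their direction and side of the threshold, 33 lost the call, 8 gained it, 120 uncalled values changed sign and none was reversed. The study's thresholds were an absolute log2 fold change above 0.58 with unadjusted p under 0.01 for HD and 0.1 for LD. By these, 1 gene of BALB/c passed after LD (Trp53inp1, lower) and 1 after HD (Cdkn1a, higher) in the 1 month comparisons, where the adjusted test called 0. The share of all genes that passed these thresholds was not set beside them, so they are no result about the 8 genes. A plate column covariate left 1 gene in the BALB/c time difference, 0 in C57BL/6 HD at 1 month, 3 in C57BL/6 HD against LD at 4 hr and 0 between sham strains. Without the arrays listed for transcripts of another tissue, these were 1 (BALB/c time difference), 0 (C57BL/6 HD at 1 month) and 0 (sham strains). The brightest probe sets alone gave 0 for the latter pair. Leaving out each array in turn gave 6 to 7 genes for HD against sham at 4 hr in either strain, 6 to 7 (BALB/c) and 6 (C57BL/6) for HD against LD at 4 hr, 3 to 5 (BALB/c) and 2 to 4 (C57BL/6) for the time difference, 0 to 1 for C57BL/6 HD at 1 month and for sham strains, and 0 for the others. Replicate numbers did not pair the mice (mean correlation of same-numbered residuals 0.0145 in BALB/c, 0.0124 in C57BL/6 and −0.128 in blood). With the replicate number as a block, 6 genes were called in BALB/c HD against sham at 4 hr (7 without) and 7 against LD (6 without), and no other count moved. The shares of all genes called under the alternatives were not set beside the counts, so a changed count is no result about the 8 genes alone. The number of arrays per group limits the precision.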
